A study of Bos taurus with 27 samples.

Results

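Blastocyst pools with a high stress score were compared with pools with a low stress score. The score was the mean of log2(CPM + 1) of DDIT3, TRIB3, ASNS and CHAC1, where CPM is a gene's count as a share of all gene counts of that pool, multiplied by 1000000. Pools were chosen by this score, so that the 9 highest of all 27 pools formed the high pools, the 9 lowest formed the low pools, and the 9 in the middle were left out of the comparison. The high and low pools were defined from the data and were not groups of the study. Values of the score and its 4 genes are therefore given as a description, and p-values for other genes measure association with the score.

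Each pool held RNA of 2 in vitro produced bovine blastocysts, all expanding or expanded and of quality score 1. Oocytes from abattoir ovaries had been matured in vitro in medium that held pooled fluid of preovulatory follicles of either greater or lesser maturity. Follicle maturity had been classed by serum estradiol of the cows. The oocytes were then fertilized with semen of the same bull and cultured alike in KSOM. Both embryos of a pool came from the same treatment and in vitro fertilization (IVF) replicate. Neither was assigned to a pool or fitted here. The comparisons therefore do not tell an association with the score apart from a difference in treatment or in IVF replicate. The blastocysts came from fewer IVF replicates than there were pools, so pools share IVF replicates, which p-values do not account for. No genetic change or other treatment is given for the embryos. Each pool mixed whole embryos, so trophectoderm and inner cell mass were not kept apart, and the sex of the embryos was not given.

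The integrated stress response is a pathway that cells use when amino acids or haem are scarce, when unfolded proteins build up in the endoplasmic reticulum (ER) or when viral RNA is present. The kinases EIF2AK1 to EIF2AK4 phosphorylate the initiation factor subunit EIF2S1, general translation slows, and the transcription factor ATF4 is translated more. ATF4 then activates genes for amino acid synthesis, amino acid uptake and tRNA charging, together with the score genes. Among the score genes, DDIT3 (also called CHOP) is a transcription factor tied to cell death under prolonged stress, TRIB3 is a pseudokinase that restrains ATF4 signalling, ASNS makes asparagine and CHAC1 breaks down glutathione.

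Gene counts summed to 13895833 to 44253564 per pool in the 18 pools compared, so 1 CPM was equal to between 13.9 and 44.3 counts. The median total was 27366102 in high pools and 27245772 in low pools (exact permutation test, two-sided, p = 0.95). Genes with at least 1 count numbered 16147 to 18959 in high pools and 15491 to 18266 in low pools (exact permutation test, p = 0.071, adjusted p = 0.34 over 16 measures). Trophectoderm markers KRT8, KRT18 and GATA3 and epiblast markers NANOG, SOX2 and POU5F1 were counted in every pool. Other markers were not, with ELF5 of the trophectoderm at 0 in 5 of the 27 pools. Of the epiblast markers, FGF4 was at 0 in 17 pools and CRIPTO in 1. The hypoblast factor SOX17 was at 0 in 14 of the 27 pools, although GATA6 and PDGFRA, also of the hypoblast, were counted in every pool.

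The score was between 3.44 and 5.34 in high pools and between 2.82 and 3.15 in low pools. The pools just outside these limits had scores of 3.39 and 3.22, so the middle pools joined both the high and the low pools almost without a gap. Pool 21 stood apart with a score of 5.34, ahead of pools 45 and 42 with 4.13 and 4.0. The other 6 high pools had scores of 3.63 or less.

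DDIT3 was between 11.8 and 33.0 CPM in high pools, with a median of 18.5, and between 6.53 and 18.05 CPM in low pools, with a median of 13.9. TRIB3 was between 5.58 and 30.4 CPM in high pools, with a median of 9.92, and between 1.66 and 9.28 CPM in low pools, with a median of 6.20. ASNS was between 24.9 and 106 CPM in high pools, with a median of 39.1, and between 14.9 and 51.4 CPM in low pools, with a median of 26.2. No score gene separated all high pools from all low pools, and between 3 and 5 of the 9 high pools lay above every low pool for a given gene. CHAC1, the least abundant, was between 0.826 and 22.7 CPM in high pools, with a median of 2.16, and between 0.107 and 2.02 CPM in low pools, with a median of 0.661. The lowest of these CHAC1 values was 2 counts in pool 46, below the 3 counts taken as the smallest abundance that can be shown.

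**Figure D1:**
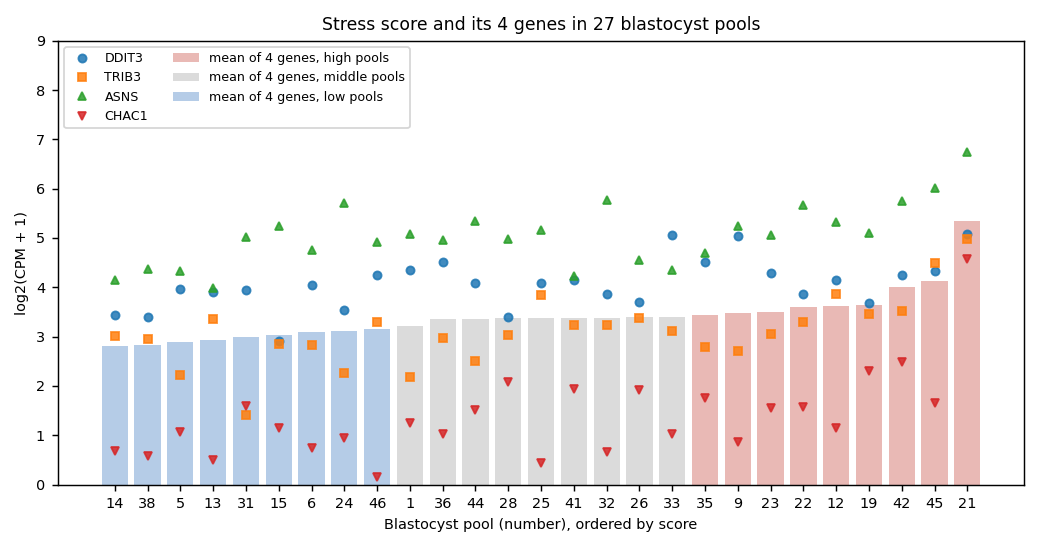
Stress score (bars, mean log2(CPM + 1) of 4 genes) and each of its genes (symbols, log2(CPM + 1)) in 27 blastocyst pools ordered by score. Bars are blue for the 9 low pools, grey for the 9 middle pools and red for the 9 high pools, and pool 21 at the right has the highest value of ASNS, TRIB3, DDIT3 and CHAC1.

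The 4 score genes followed each other weakly across pools. Their pairwise Spearman correlations, given as a description over 27 pools that share no library, were between 0.114 and 0.280, and between 0.00718 and 0.194 over the 26 pools without pool 21. Pool 21 alone was highest in all 4 genes, at 33.0 CPM for DDIT3, 30.4 for TRIB3, 106 for ASNS and 22.7 for CHAC1, whereas pool 9 owed its place to DDIT3 at 31.9 CPM and had CHAC1 at 0.826 CPM. Pool 24 was a low pool with ASNS at 51.4 CPM, above the ASNS median of high pools. When the pools were chosen by 3 of the genes and the remaining gene was compared as one the choice had not used, the log2 fold change (high minus low) was 0.05 ± 0.24 (SE, n = 9 and 9) for DDIT3, 0.56 ± 0.34 for TRIB3, 0.58 ± 0.33 for ASNS and 1.42 ± 0.71 for CHAC1. None of these differences passed the quasi-likelihood test of edgeR, with unadjusted p of 0.84, 0.11, 0.091 and 0.057 and every adjusted p at 0.82 or more. Dropping a gene from the score, scaling the genes to equal variance or changing the pseudocount or library size kept between 13 and 17 of the 18 pools in their set and moved no pool from the high pools to the low pools or back.

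Across the other 12306 genes with at least 1 CPM in 12 pools, the quasi-likelihood test of edgeR called 0 genes (0%) at an adjusted p of 0.05 or less, and the smallest adjusted p was 0.14. At an unadjusted p of 0.05 or less, 409 genes (3.32%) were higher and 523 genes (4.25%) were lower in high pools. DESeq2 on the same 18 pools called 17 genes higher (0.138%) and 10 lower (0.0813%). When edgeR was fitted to the score itself over all 27 pools, as the log2 change per unit of score, 12 genes rose with the score (0.0975%) and 2 fell (0.0163%). That fit gains the middle pools and the distance of pool 21 from the rest, and without pool 21 it called 1 gene (0.00813%), PHGDH. Of the 14 genes called over 27 pools, 10 belong to the lists of stress response regulators, amino acid synthesis, amino acid transporters and tRNA synthetases, and 4 were also called by DESeq2 (PHGDH, PSPH, PYCR1 and AASS). In that order, the lists held 16, 14, 8 and 20 of the 12306 genes tested. They were chosen with earlier results of these data known and, like the score genes, include targets of ATF4.

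Of the 3 enzymes of serine synthesis, PHGDH and PSPH were called by DESeq2 between high and low pools, and only PHGDH was called over the 26 pools without pool 21. Serine is made from a glycolytic intermediate by PHGDH, which takes the first and rate-limiting step, then PSAT1 and then PSPH, and serine in turn feeds glycine and one-carbon metabolism. PHGDH (chromosome 3, 23565152 to 23596343, ARS-UCD2.0) was between 6.47 and 70.0 CPM in high pools, with a median of 9.13, and between 3.09 and 10.9 CPM in low pools, with a median of 4.44. All 9 high pools were above the median of low pools and 4 were above every low pool, with pool 15 the only low pool above 5.48 CPM. The log2 fold change was 1.94 ± 0.44 (SE, n = 9 and 9) with an adjusted p of 0.22 in edgeR and 0.0032 in DESeq2, and it was 1.43 without pool 21. Over all 27 pools PHGDH rose by 1.75 ± 0.19 (SE) on the log2 scale per unit of score (edgeR, adjusted p = 1.6e-06). The slope was 1.98 ± 0.32 without pool 21 (edgeR, adjusted p = 0.010, over 26 pools).

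PSPH (chromosome 25, 27697176 to 27727753) was between 24.7 and 154 CPM in high pools, with a median of 31.7, and between 12.2 and 28.5 CPM in low pools, with a median of 18.1. Only pool 38 among low pools was above the lowest high pool. The log2 fold change was 1.297 ± 0.318 with an adjusted p of 0.28 in edgeR and 0.014 in DESeq2, and 0.87 without pool 21. PSPH rose with the score over 27 pools (slope 1.19 ± 0.17, adjusted p = 0.00032) and was not called without pool 21 (slope 1.13 ± 0.31, adjusted p = 0.66). PSAT1, the step between them, was between 19.6 and 380 CPM in high pools, with a median of 58.9, and between 38.0 and 114 CPM in low pools, with a median of 50.8. The high pools held both ends of its range, with 4 pools above every low pool and 3 below every low pool. Its log2 fold change was 0.94 ± 0.47 with an adjusted p of 0.68, and 0.54 without pool 21. PSAT1 rose with the score over 27 pools (slope 1.12 ± 0.23, adjusted p = 0.029) and was not called without pool 21 (adjusted p = 0.97).

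PYCR1, which completes proline synthesis in mitochondria, was between 0.756 and 12.9 CPM in high pools, with a median of 1.65, and between 0.257 and 1.55 CPM in low pools, with a median of 0.726. The lowest of these was 7 counts, and 5 high pools were above every low pool. The log2 fold change was 2.09 ± 0.54 with an adjusted p of 0.31 in edgeR and 0.038 in DESeq2, and the slope over 27 pools was 1.87 ± 0.28 (adjusted p = 0.00035). ALDH18A1, which starts proline synthesis, had a log2 fold change of 0.47 ± 0.23 and was not called in any of these fits.

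Of the 14 genes listed for serine, one-carbon and amino acid synthesis, all 14 were tested, 3 were higher (PHGDH, PSPH and PYCR1) and 1 was lower at an unadjusted p of 0.05 or less. These shares, 21.4% and 7.14%, stand beside 3.32% and 4.25% over all genes tested. The list's median log2 fold change was 0.18, against -0.01 over all genes, and 0.04 without pool 21. The lower member was GOT1, the cytosolic aspartate aminotransferase, at -0.19 ± 0.09. Without pool 21, 3 were still higher, beside 3.19% of all genes, and 0 were lower, beside 4.04%. The mitochondrial one-carbon enzymes SHMT2 and MTHFD2 had log2 fold changes of 0.26 ± 0.18 and 0.10 ± 0.22, and the transsulfuration enzymes CBS and CTH had 0.32 ± 0.33 and 0.09 ± 0.26, none past an unadjusted p of 0.05. Over 27 pools, 7 of the 14 were positively associated with the score at an unadjusted p of 0.05 or less, beside 3.07% of all genes. Without pool 21 there were 5 of them, beside 1.6% of all genes.

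**Figure D2:**
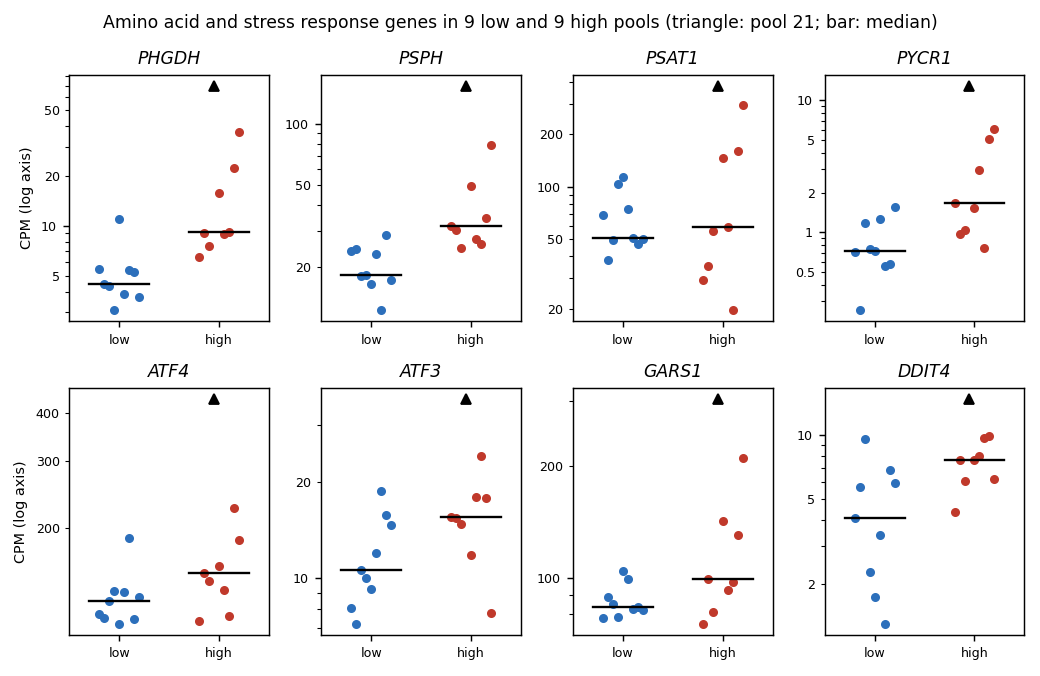
CPM (log axes) of PHGDH, PSPH, PSAT1, PYCR1, ATF4, ATF3, GARS1 and DDIT4 in the 9 low (blue) and 9 high (red) pools, each point a pool, with bars at the medians. The black triangle is pool 21, which has the highest value of every gene shown, and all high pools lie above the low median for PHGDH, PSPH, PYCR1 and DDIT4.

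ATF4 was between 114 and 435 CPM in high pools, with a median of 152, and between 112 and 188 CPM in low pools, with a median of 129. Only pools 21 and 42 were above the highest low pool, and the log2 fold change was 0.44 ± 0.22 (adjusted p = 0.67), or 0.17 without pool 21. ATF4 rose with the score over 27 pools by 0.65 ± 0.10 per unit (adjusted p = 0.0013) and was not called without pool 21 (adjusted p = 0.998). ATF3, a transcription factor downstream of ATF4, had a median of 15.6 CPM in high pools and 10.6 CPM in low pools, with a log2 fold change of 0.54 ± 0.25 (adjusted p = 0.64). DDIT4, an inhibitor of mTORC1 signalling, had a median of 7.66 CPM in high pools and 4.10 CPM in low pools, and all 9 high pools were above the low median (log2 fold change 0.84 ± 0.32, adjusted p = 0.57).

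Of the 22 listed regulators, 16 were tested, and 3 (DDIT4, ATF3 and SQSTM1) were higher (18.8%, beside 3.32% of all genes) and 0 lower (beside 4.25%) at an unadjusted p of 0.05 or less. Without pool 21 only DDIT4 was higher, beside 3.19% of all genes, and ATF3 had a log2 fold change of 0.33. The list's median was 0.11, and 0.07 without pool 21. The kinase transcripts EIF2AK1, EIF2AK2, EIF2AK3 and EIF2AK4 had log2 fold changes of -0.03, 0.37, -0.41 and 0.16, and PPP1R15A, which directs dephosphorylation of EIF2S1, had -0.03 ± 0.36. Phosphorylation itself was not measured. GDF15, FGF21 and STC2, secreted products of the response in other tissues, did not reach 1 CPM in 12 pools, and GDF15 was at 0 counts in all 9 low pools and no higher than 0.987 CPM in a high pool.

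Amino acid transporters differed among themselves. SLC1A4, a carrier of serine, alanine and cysteine, was between 2.75 and 37.3 CPM in high pools, with a median of 7.62, and between 0.170 and 8.18 CPM in low pools, with a median of 5.43. Its log2 fold change was 1.22 ± 0.50 (adjusted p = 0.59), and it rose with the score over 27 pools (slope 1.28 ± 0.27, adjusted p = 0.042) but was not called without pool 21. SLC7A5 and SLC3A2, which pair to carry large neutral amino acids, had log2 fold changes of -0.27 ± 0.20 and -0.15 ± 0.17. The 8 tested of 12 listed transporters had a median of -0.03, with 1 higher (12.5%, beside 3.32% of all genes) and 0 lower (beside 4.25%) at an unadjusted p of 0.05 or less. Without pool 21 the median was -0.13 and 0 were higher, with SLC1A4 at 0.78. SLC7A11, the cystine carrier, was not tested and did not exceed 2.85 CPM in high pools or 0.214 CPM in low pools. Its medians were 0.567 CPM in high pools and 0 in low pools, and 8 of 9 high pools were above every low pool. The values lie near the floor, with a median of 2 counts over the 18 pools.

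Aminoacyl-tRNA synthetases load amino acids onto tRNA, and several are known targets of ATF4. GARS1 (chromosome 4, 65704795 to 65758336), the glycine enzyme, was between 75.4 and 303 CPM in high pools, with a median of 99.3, and between 77.9 and 104 CPM in low pools, with a median of 83.7. Pools 21, 45, 22 and 42 were above every low pool, whereas pool 9 was below every low pool. Its log2 fold change was 0.60 ± 0.22 (adjusted p = 0.53), and it rose with the score over 27 pools by 0.77 ± 0.09 per unit (adjusted p = 9.0e-06). YARS1, IARS1 and CARS1, the tyrosine, isoleucine and cysteine enzymes, also rose with the score over 27 pools, with slopes of 0.53, 0.56 and 0.82 and adjusted p of 0.0065, 0.042 and 0.039. None of these 4 synthetases was called without pool 21, where the slopes were 0.69, 0.34, 0.31 and 0.68 for GARS1, YARS1, IARS1 and CARS1. Between high and low pools, 2 of 20 synthetases were higher (GARS1 and CARS1) and 1 was lower (QARS1, the glutamine enzyme, -0.36 ± 0.13) at an unadjusted p of 0.05 or less, with a median log2 fold change of 0.06 for the list. These shares were 10% and 5%, beside 3.32% and 4.25% of all genes. Without pool 21 the log2 fold changes of GARS1 and CARS1 were 0.36 and 0.42. There 1 of 20 synthetases, GARS1, was higher, beside 3.19% of all genes. QARS1 was still lower, at -0.39, as the only 1 of the list, beside 4.04% of all genes.

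**Figure D3:**
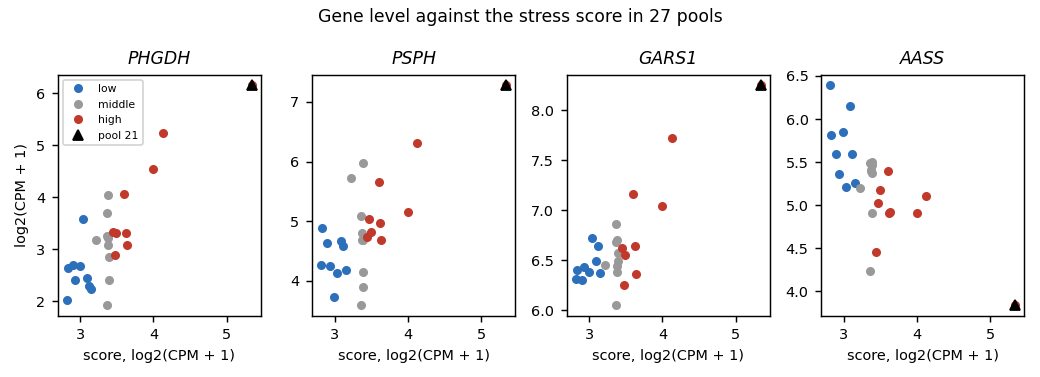
Level of PHGDH, PSPH, GARS1 and AASS, as log2(CPM + 1), against the stress score in 27 pools, with low pools in blue, middle pools in grey, high pools in red and pool 21 as a black triangle. Pool 21 lies at the far right with the highest PHGDH, PSPH and GARS1 and the lowest AASS of all pools.

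Of the 14 genes called over 27 pools, 13 were not called when pool 21 was left out. Pool 21 had the highest value of all 27 pools for 6 of the 14 amino acid synthesis genes (42.9%), 4 of the 8 transporters (50%), 8 of the 20 tRNA synthetases (40%) and 5 of the 16 regulators (31.3%). Over all 12306 genes it was highest for 678 (5.51%), and other pools were highest for as many as 1132 genes (pool 31). Its PHGDH was 70.0 CPM and its PSAT1 380 CPM, followed by pool 45 at 36.8 and 295 CPM and pool 42 at 22.3 and 160 CPM, the pools next in score. Pool 21 also had the highest level of all 5 Y-linked genes tested, with a sum of 197 CPM, and had XIST at 0.146 CPM. Y-linked genes summed to over 10 CPM in 5 high, 6 low and 7 middle pools, and the part of embryo sex in the values of pool 21 was not tested.

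The remaining genes called over 27 pools were not in those lists. PHAX, an adaptor that exports small nuclear RNA from the nucleus, rose with the score (slope 0.45 ± 0.07, adjusted p = 0.00035) and had medians of 126 CPM in high pools and 104 CPM in low pools. The mitochondrially encoded complex I subunit ND1 (locus KEH36_p13) rose (slope 0.56 ± 0.11, adjusted p = 0.029), with 3022 CPM in pool 21 and at most 1398 CPM in the other high pools. The other 12 mitochondrially encoded protein genes had negative log2 fold changes between high and low pools, between -0.22 and -0.03, and 0 of the 13 passed an unadjusted p of 0.05 there. GPX1, a glutathione peroxidase, fell with the score (slope -0.53 ± 0.11, adjusted p = 0.042), with 152 CPM in pool 21 and 285 to 548 CPM in low pools.

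AASS was the other gene that fell. It is the mitochondrial enzyme that begins lysine breakdown (chromosome 4, 86512542 to 86594657). AASS was between 13.4 and 41.2 CPM in high pools, with a median of 29.2, and between 36.1 and 82.8 CPM in low pools, with a median of 47.4. Of the high pools, 8 were below every low pool. The log2 fold change was -0.90 ± 0.19 with an adjusted p of 0.16 in edgeR and 0.0061 in DESeq2, and the slope over 27 pools was -0.83 ± 0.16 (adjusted p = 0.019). Without pool 21 the slope was -0.89 ± 0.23 and did not pass (adjusted p = 0.62).

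No gene of the ER chaperone and unfolded protein response list was called in edgeR or DESeq2. HSPA5, the main ER chaperone, was between 775 and 1706 CPM in high pools, with a median of 1366, and between 913 and 1438 CPM in low pools, with a median of 1019. Its log2 fold change was 0.23 ± 0.13 (adjusted p = 0.74). XBP1, a transcription factor of the unfolded protein response, had -0.12 ± 0.14 (adjusted p = 0.88). Of 24 tested genes in the list, 3 were higher (PDIA4, DNAJB11 and SEC61B, 12.5% beside 3.32% of all genes) and 0 lower (beside 4.25%) at an unadjusted p of 0.05 or less, with a median of 0.07. The counts do not tell spliced from unspliced XBP1 transcripts.

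Other stress programs had few members past an unadjusted p of 0.05, and no member called in edgeR between high and low pools. The counts that follow stand beside 3.32% of all genes higher and 4.25% lower. Heat shock genes had 2 of 11 higher (DNAJA1 at 0.26 ± 0.12 and BAG3 at 0.47 ± 0.20) and mitochondrial chaperones and proteases 0 of 11 in either direction, the former being 18.2% of its list. Targets of p53 had 1 of 15 higher (6.67%), PMAIP1, which encodes the pro-apoptotic protein NOXA (0.68 ± 0.24), and a median of 0.26, while CDKN1A, the cell cycle inhibitor, had 0.37 ± 0.24 (adjusted p = 0.77). Apoptosis regulators had 0 of 14 in either direction. Oxidative stress genes had 2 of 17 higher (11.8%) and 1 lower (5.88%). The higher members were SOD1 at 0.57 ± 0.20 and GCLM, a subunit of the enzyme that limits glutathione synthesis, at 0.58 ± 0.21, and the lower member was GPX1 at -0.36 ± 0.15. Autophagy genes had 1 of 11 higher (9.09%), GABARAPL1 at 0.42 ± 0.18, and 0 without pool 21. Glycolysis genes had 2 of 16 lower (12.5%), GPI at -0.20 ± 0.08 and PGAM1 at -0.23 ± 0.10, and a median of -0.18, and cell cycle genes had 0 of 18 in either direction with a median of -0.07.

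**Figure D4:**
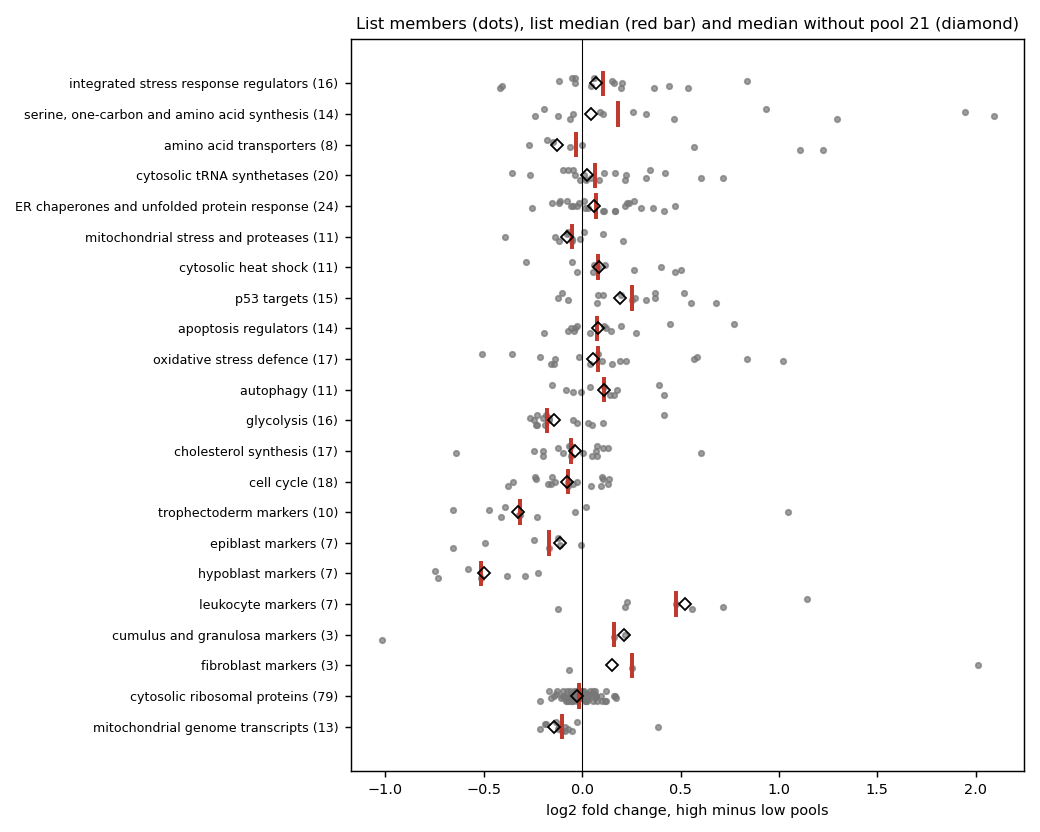
Log2 fold changes (high minus low pools, edgeR) of the tested members of each gene list, with 1 dot per gene, a red bar at the list median and a diamond at the median without pool 21. The number of genes tested is in parentheses, and the hypoblast list has the lowest median, -0.51, while the median over all genes was -0.01.

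Markers of the blastocyst lineages had negative median log2 fold changes between high and low pools, but over 27 pools few were associated with the score. In that fit 0 of 10 trophectoderm, 0 of 7 epiblast and 2 of 7 hypoblast markers (LAMA1 and RSPO3) were lower with the score by unadjusted p (at most 0.05), beside 4.36% of all genes. In trophectoderm, the outer layer that forms the placenta, 5 of 10 markers were lower at an unadjusted p of 0.05 or less (50%, beside 4.25% of all genes) and 0 were higher, with a median of -0.32. TFAP2A, a trophectoderm transcription factor, was between 2.14 and 7.17 CPM in high pools, with a median of 5.24, and between 5.29 and 10.2 CPM in low pools, with a median of 7.31. None of the high pools was above its low median (-0.65 ± 0.24, adjusted p = 0.53). The others were GATA2 at -0.47, GATA3 at -0.39, the keratin KRT8 at -0.32 and the adaptor DAB2 at -0.32, whereas TFAP2C had 0.02 and TEAD4 -0.04. ELF5, a placental transcription factor, had the largest fitted difference of the list and the opposite sign, at 1.05 ± 1.08 (adjusted p = 0.86), with a lowest value of 0 CPM in both sets.

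In hypoblast, the layer that lines the yolk sac, all 7 tested markers had a negative log2 fold change, and 3 of them were lower at an unadjusted p of 0.05 or less (42.9%, beside 4.25% of all genes), with a median of -0.51. PDGFRA, a growth factor receptor, was between 17.3 and 43.8 CPM in high pools, with a median of 29.0, and between 26.9 and 54.8 CPM in low pools, with a median of 44.4. None of the high pools was above its low median (-0.51 ± 0.17, adjusted p = 0.46). COL4A1 and LAMA1, which encode basement membrane proteins, had -0.73 ± 0.25 and -0.58 ± 0.21. In epiblast, the source of the embryo proper, all 7 tested markers were negative with a median of -0.17, and 0 passed an unadjusted p of 0.05. Without pool 21 the medians were -0.32, -0.50 and -0.11 for trophectoderm, hypoblast and epiblast.

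Summed over each list, the lineage markers passed no test between high and low pools. Trophectoderm markers summed to 16297 to 33333 CPM in high pools and 20858 to 39894 CPM in low pools (exact permutation test, p = 0.11, adjusted p = 0.34). Hypoblast markers summed to 377 to 1493 CPM in high pools and 873 to 1700.0 CPM in low pools (exact permutation test, p = 0.13, adjusted p = 0.34), and epiblast markers to 521 to 1005 CPM and 343 to 1048 CPM (p = 0.54 by the exact permutation test). In pools of whole embryos, fewer cells of a type and less RNA per cell cannot be told apart. The part of cell composition in the values of other genes was not tested.

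Markers of cells outside the embryo were counted in both sets, and the members of each list differed. The leukocyte marker TYROBP, the granulosa marker FSHR and the fibroblast marker COL1A2 were counted in every pool. Their medians over 27 pools were 7.94, 8.89 and 20.8 CPM, and the fibroblast marker LUM reached 82.8 CPM. The 10 leukocyte markers summed to 21.8 to 79.6 CPM in high pools and 10.5 to 50.4 CPM in low pools (exact permutation test, p = 0.11, adjusted p = 0.34), with 6 of 9 high pools above the low median and LAPTM5 at 0 in 13 of 27 pools. IL2RG, a cytokine receptor subunit, was the only 1 of 7 tested that was higher at an unadjusted p of 0.05 or less (14.3% of the list, beside 3.32% of all genes), at 1.14 ± 0.38, and the list had a median of 0.48. Over 27 pools the slope of IL2RG was 0.37 ± 0.41 (edgeR, adjusted p = 0.90), and the median slope of the list was 0.02. Cumulus and granulosa markers summed to 9.39 to 27.6 CPM and 6.06 to 26.2 CPM in high and low pools, with FOXL2 at 0 in 26 of 27 pools, and 0 of 3 tested passed in either direction. Fibroblast markers summed to 10.003 to 111.9 CPM and 17.8 to 44.6 CPM, with COL3A1 at 0 in 14 pools and 0 of 3 tested past the limit. The part of these cells in the result was not tested.

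Interferon tau transcripts, the pregnancy signal of ruminant trophectoderm, summed to 19.1 to 589 CPM in high pools and 15.2 to 264 CPM in low pools (p = 0.34, exact permutation test). XIST was between 0.146 and 26.4 CPM and between 0.0484 and 35.4 CPM in high and low pools. The 79 tested cytosolic ribosomal protein genes had a median of -0.01, with 0 past an unadjusted p of 0.05 in either direction. None of the 16 library measures passed after adjustment (smallest adjusted p = 0.34, exact permutation tests over 48620 divisions into 9 and 9).

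Because no gene was called between high and low pools, the genes with the smallest p are named after their values were seen. Of those higher in high pools, ANKRD1, a target of YAP signalling, was between 3.45 and 60.8 CPM in high pools, with a median of 9.98, and between 0.0326 and 5.45 CPM in low pools, with a median of 2.14. Its lowest value was 1 count, and 8 of 9 high pools were above every low pool (log2 fold change 2.98 ± 0.59, adjusted p = 0.14 in edgeR and 0.0026 in DESeq2). ASZ1, a germline gene that silences transposons, was between 16.6 and 54.2 CPM in high pools and between 15.8 and 23.4 CPM in low pools, with medians of 35.8 and 19.7 (0.83 ± 0.17, adjusted p = 0.14 and 0.0046 in edgeR and DESeq2). Only pool 45 of the high pools, the next in score after pool 21, was within the range of low pools. Without pool 45, which goes against the difference, ASZ1 was called in edgeR (adjusted p = 0.039). Leaving out any other single pool gave no call. Over 27 pools ASZ1 was not called (slope 0.59 ± 0.17, edgeR, adjusted p = 0.31). FASTKD2, needed for the mitochondrial ribosome, had medians of 29.7 and 15.7 CPM in high and low pools (0.85 ± 0.20), and ARCN1, a subunit of the COPI vesicle coat, had 79.4 and 61.3 CPM (0.42 ± 0.11).

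TRIM64, KLK5, BEX5, UBE2A and TNFRSF10D completed the 12 genes higher by smallest p, beside PHGDH, PSPH and PYCR1. TRIM64 had medians of 11.2 and 1.32 CPM in high and low pools (2.89 ± 0.62, adjusted p = 0.0046 in DESeq2). It belongs to a family of near-identical copies whose reads can be split or shared in counting, so its value is uncertain. KLK5, a serine protease, had medians of 12.3 and 6.69 CPM, and TNFRSF10D, a decoy receptor of the death ligand TRAIL, had 15.1 and 6.09 CPM. DESeq2 also called 9 genes whose symbol starts with LOC, of which LOC513767 had 10.1 to 21.7 CPM in high pools and 2.30 to 7.84 CPM in low pools. LOC112445157 had the smallest adjusted p in DESeq2 (2.4e-05, and 0.14 in edgeR). It had 1.72 to 34.3 CPM in high pools and 0.0978 to 4.45 CPM in low pools. The lowest of the high pools was pool 21, which had the highest score, and its 1.72 CPM was below the low median of 1.76 CPM. Over 27 pools LOC112445157 was not called (slope 2.05 ± 1.20, edgeR, adjusted p = 0.73). LOC107132012 had 1.10 to 26.6 CPM and 0.0652 to 1.55 CPM in high and low pools (adjusted p = 0.00096 in DESeq2 and 0.16 in edgeR). Its medians in low and middle pools were 0.484 and 0.230 CPM, under the 1 CPM of the filter that every high pool reached. It passed the filter largely through high pools, so its difference is partly fixed by that filter. LOC100848180, LOC789309, LOC101908014 and LOC100337093, also called by DESeq2, had low medians under 1 CPM too.

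There were 5 genes with no overlap between high and low pools, all higher in high pools (0.0406% of genes tested), and 0 lower (0%). They were TIPRL, CHD1, ARCN1, LOC513767 and LOC112445100. TIPRL, a regulator of protein phosphatases, was between 122 and 151 CPM in high pools and between 65.5 and 119 CPM in low pools (0.32 ± 0.10, adjusted p = 0.42). CHD1, a chromatin remodeller of active genes, was between 53.3 and 64.9 CPM in high pools and between 40.9 and 50.04 CPM in low pools (0.25 ± 0.09, adjusted p = 0.52). Both differences were small beside those of PHGDH or ANKRD1, and neither gene was called by edgeR or DESeq2.

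Of the genes lower in high pools, PEPD, the prolidase that frees proline from dipeptides, was between 144 and 255 CPM in high pools, with a median of 188, and between 190 and 329 CPM in low pools, with a median of 274. No high pool was above the low median (-0.52 ± 0.11, adjusted p = 0.14 in edgeR and 0.0061 in DESeq2). GALM, which interconverts forms of galactose and glucose, was between 221 and 354 CPM in high pools and between 318 and 478 CPM in low pools, with 7 high pools below every low pool (-0.54 ± 0.11, adjusted p = 0.14 and 0.0061). SLC35G1 had medians of 265 and 445 CPM in high and low pools (-0.78 ± 0.16, adjusted p = 0.14 and 0.0046). PLA2G15, a lysosomal phospholipase, had 281 and 384 CPM, and DHRS3, which reduces retinal, had 20.2 and 31.7 CPM, with log2 fold changes of -0.51 ± 0.11 and -0.59 ± 0.14.

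TMEM203, LIMS1, MRAS, GALNT11, CLDN8 and CDCA4 completed the 12 genes lower by smallest p, beside AASS. LIMS1, an adaptor at integrin adhesions, had medians of 31.1 and 40.2 CPM, and MRAS, a small GTPase, had 29.1 and 39.1 CPM in high and low pools. CLDN8, a tight junction protein, was between 1.72 and 10.012 CPM in high pools and between 5.96 and 20.4 CPM in low pools (-1.33 ± 0.33). All of these lower genes kept a negative log2 fold change without pool 21, between -1.23 and -0.40.

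**Figure D5:**
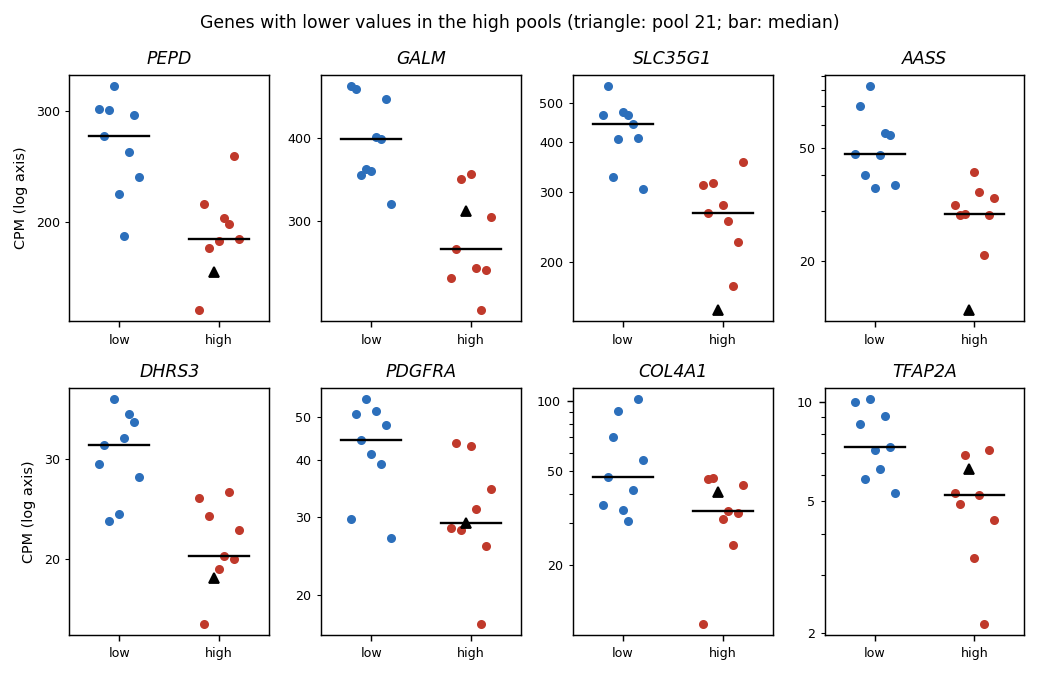
CPM (log axes) of PEPD, GALM, SLC35G1, AASS, DHRS3, PDGFRA, COL4A1 and TFAP2A in the 9 low (blue) and 9 high (red) pools, each point a pool, with bars at the medians and pool 21 as a black triangle. The high median is below the low median for each gene, and pool 21 is lowest of the pools shown for SLC35G1 and AASS but lies among the other high pools for PDGFRA, COL4A1 and TFAP2A.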

How the data were processed

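RNA-sequencing counts of 27 pools of 2 bovine blastocysts were analysed. Libraries came from a SMART-Seq v4 3’ DE cDNA kit and Nextera XT. The authors used only forward reads, which were checked with FastQC, cleaned by fastp and aligned to ARS-UCD2.0 using STAR, and then featureCounts produced the raw counts of 32637 genes that were deposited. Versions, annotation release and strand setting are not given in the sources used here, so a gene and an antisense partner may share reads. Counts are reads without molecular identifiers, so the smallest abundance shown by 3 counts (0.0678 to 0.285 CPM) covers counting error only. All columns were used (0 not used).

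Labels give the pools as 1 group with a number each. The score, CPM and filter (1 CPM in 12 pools, 12310 genes, of which 12306 were tested) were computed from the counts. The members, gene lists and tests were chosen with earlier results of these data known. The 9 high and 9 low pools were compared by the quasi-likelihood test of edgeR after TMM scaling, two-sided, without covariates, with Benjamini-Hochberg adjustment over all genes tested and calls at an adjusted p of 0.05 or less. SE was the log2 fold change divided by the square root of F. Library measures were compared by exact permutation tests of mean log2 values. DESeq2, the score as a continuous term and the other alternatives are given at the end, and the fit over 26 pools was chosen after seeing the data. Genes to be named were the 12 with the smallest p in each direction among those called, leaving out names starting with LOC, called members of each list, ATF4, ATF3, PSAT1, PHGDH, HSPA5, XBP1, CDKN1A and the score genes. As none was called, the smallest p, list members at an unadjusted p of 0.05 or less, and genes called in the alternatives were named after their values were seen. Positions come from RefSeq of ARS-UCD2.0, which matched 12274 of the 12306 genes. Scripts were tested on simulated data. Python 3.11.15, numpy 2.4.6, pandas 2.3.3, scipy 1.17.1, R 4.3.3, edgeR 4.0.16 and DESeq2 1.42.0 were used. A result on cholesterol synthesis is not reported here.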

Additional observations from a re-analysis of the deposited data

Results flagged for a closer look

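Within the 9 high pools or the 9 low pools, a pool was picked out where its gap to the nearest other pool, as a share of the range, exceeded Dixon's critical value at the 95% level for 9 values. Of 190 sets of 9 values (95 measures, each in high and in low pools), 31 were picked out, and chance picks out about 1 in 20. Gene values were on the log2(CPM + 1) scale and summed markers on the log2 scale.

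Pool 21 was picked out in 8 of these. It was highest of the high pools in the score (gap 0.64 of the range) and CHAC1 (0.565), which chose the sets, so these gaps are a description. Pool 21 was also highest in YARS1 (0.528), IARS1 (0.609), CARS1 (0.54) and ND1 (locus KEH36_p13, 0.563), and lowest in GPX1 (0.578) and XIST (0.56). Other high pools stood apart at the upper end in LOC789309 (pool 9, 0.495), LOC112445100 (pool 23, 0.56), PMAIP1 (pool 9, 0.589) and SOD1 (pool 9, 0.563). At the lower end were BEX5 (pool 45, 0.509), DNAJB11 (pool 12, 0.557), GATA2 (pool 9, 0.501), KRT8 (pool 12, 0.556), COL4A1 (pool 9, 0.533), summed trophectoderm markers (pool 12, 0.558) and summed hypoblast markers (pool 9, 0.499).

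Among low pools, pool 31 was highest in ATF4 (0.618) and lowest in FASTKD2 (0.557), YARS1 (0.61), PHAX (0.538), PMAIP1 (0.504), TIPRL (0.697), summed cumulus and granulosa markers (0.59) and summed epiblast markers (0.622). Pool 31 also had the fewest genes with a count, 15491, and these values were not tested against each other. Pool 15 was highest in PHGDH (0.571) and in mitochondrial genome transcripts (0.6), pool 13 was highest in LOC789309 (0.579), and pool 14 was lowest in SLC1A4 (0.579).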

How the results depend on the processing

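No paired analysis was made, as the labels give the pools as 1 group with pool numbers only. Over 33 alternatives, edgeR called 0 genes between high and low pools except without pool 45, where ASZ1 was called, so leaving out 1 pool gave 0 to 1 genes higher and 0 lower. DESeq2 called 17 higher and 10 lower, the score over 27 pools 12 and 2, and the score over 26 pools 1 higher (PHGDH). List members called were 3 of amino acid synthesis by DESeq2. Over 27 pools they were 4 of amino acid synthesis, 4 tRNA synthetases, and 1 each of regulators, transporters, oxidative stress and mitochondrial genome genes, and without pool 21 they were 1 of amino acid synthesis. Of 74 named genes, 3 turned direction in some alternative. They were XBP1 (0.0285 per unit of score over 27 pools) and, with CHAC1 left out of the score, LOC107132012 (-0.149) and SEC61B (-0.0601). Measures that turned direction were cumulus markers (0.181), cell cycle (-0.0298) and mitochondrial transcripts (0.0249) with 13 against 13 pools, and ribosomal proteins (-0.00704) and cell cycle (-0.0517) with TMM library sizes. None of these passed its test. Genes higher and lower at an unadjusted p of 0.05 or less numbered 409 and 523, but 2033 and 1286 with no filter, 199 and 286 with 6 against 6 pools, 259 and 295 without ASNS in the score, 179 and 214 without CHAC1, and 116 and 131 at a limit of 0.01. Those lower without DDIT3 numbered 339, and those higher over 26 pools 197. The cause was not tested.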
